A study of Homo sapiens with 8 samples.

Results

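The genes described here are 10 that encode factors of RNA polymerase II (RNAPII) pausing near the promoter and of its passage through the gene. They were chosen by name for this known role, out of 19794 protein-coding genes measured. NELFA, NELFB, NELFCD and NELFE encode the subunits of NELF, SUPT4H1 and SUPT5H the subunits of DSIF, SUPT6H the elongation factor SPT6, SUPT16H the large subunit of the histone chaperone FACT, and PAF1 and CTR9 subunits of the PAF1 complex. Each was represented by its longest protein-coding isoform in hg19 (GENCODE release 44). RNAPII ChIP-seq had been performed on MDA-MB-453, an established human breast cancer cell line, after 4 h with vehicle or with 600 nM of the CDK9 inhibitor CDDD11-8, which the sample labels call D11-8. Each treatment had 2 biological replicates from different passages of this single line, and each ChIP library had its own chromatin input, which entered only the authors' peak calls. The antibody was raised against the RNAPII C-terminal domain (clone CTD4H8), so the libraries report where RNAPII sat on these genes and not how much of the encoded factors the cells held.

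NELF and DSIF bind RNAPII shortly after initiation and hold it in a paused state close to the transcription start site (TSS). CDK9, the kinase of P-TEFb, phosphorylates DSIF, NELF and the RNAPII C-terminal domain, upon which NELF leaves and DSIF travels on with RNAPII as a positive elongation factor. SPT6, FACT and the PAF1 complex then accompany RNAPII through the nucleosomes of the gene body, so that the genes described here encode the machinery on which CDK9 acts or which follows it.

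The 2 vehicle lists held 78306 and 57493 peaks and the 2 CDDD11-8 lists 25897 and 21842, with values given here and throughout in the order replicate 1, replicate 2. Although the CDDD11-8 lists were shorter, a peak within 300 bp of the TSS, called a promoter peak below, was found at a similar number of genes in the 4 libraries, from 10213 to 10662. Pileups at the summits were whole numbers in the vehicle lists and multiples of 0.74 and 0.96 in the CDDD11-8 lists, so these had been scaled down. The lists give no read totals. A shorter list of a scaled library leaves fewer weak peaks, so covered bases depend on scaling and depth as well as on RNAPII, and their shares cannot be told apart. Of 9 luminal breast epithelial marker genes, 8 had a promoter peak in all 4 libraries, among them KRT8, GATA3, FOXA1 and ERBB2, and EPCAM had none. Of 6 measured marker genes of leukocytes, fibroblasts and basal epithelium, 5 had none, and COL1A1 had one in CDDD11-8 replicate 1.

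RNAPII was present at the promoters of nearly all of these genes in both treatments. At 9 of the 10 longest isoforms every library had a promoter peak, compared with 49% of all genes, and so did the canonical starts of all 10, compared with 51.2%. With CDDD11-8, the promoter peaks of NELFB, NELFE, SUPT4H1, SUPT6H and CTR9 were wider in both libraries than in either vehicle library, and that of PAF1 was narrower. With peaks within 1 kb of each other merged, only SUPT6H and CTR9 of these genes still differed in this way. Gene body coverage, the percent of bases from 300 bp after the TSS to the transcription end site (TES) that lay inside a peak, was lower in both CDDD11-8 libraries for NELFB, NELFCD and SUPT16H and higher for NELFA and CTR9. With equal numbers of peaks in each list the libraries of NELFCD overlapped, and with peaks within 1 kb merged those of NELFB did. Coverage of the first 3 kb after the TES was lower for NELFB, NELFCD, NELFE, SUPT4H1, SUPT16H and PAF1. None of these differences could reach p = 0.05, since 4 libraries can be split in 6 ways and the two-sided exact permutation p cannot go below 0.33. Genes are therefore counted below by whether both CDDD11-8 libraries lay on the same side of both vehicle libraries, and the main counts over the set are given with the percent of all genes that met the same criterion. The map of called peaks shows all 10 genes by distance from the TSS.

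**Figure D1:**
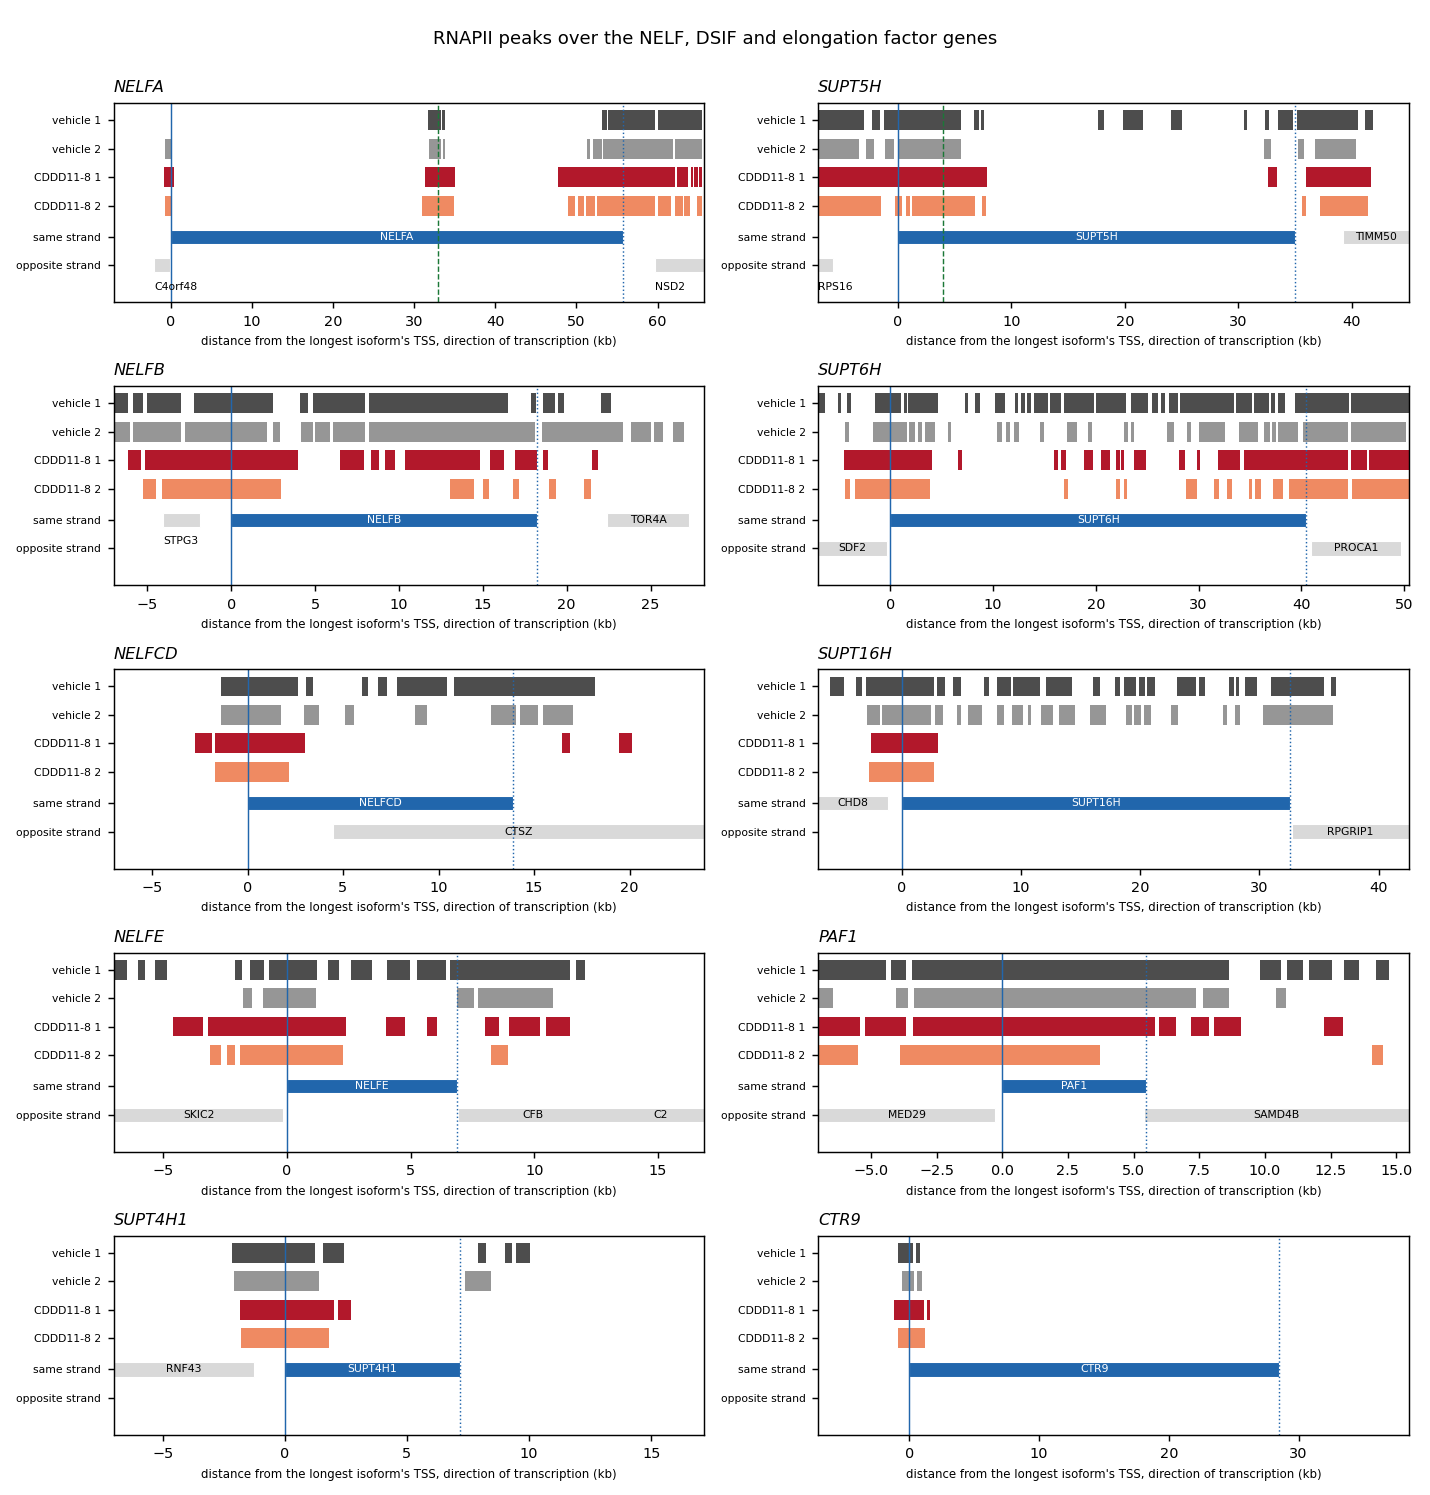
Called RNAPII peaks over each gene in the 4 libraries (coloured bars), by distance in kb from the TSS of the longest isoform in the direction of transcription. The gene is drawn in blue, other protein-coding genes in grey, the TSS as a solid line, the TES as a dotted line and a canonical start more than 300 bp away as a dashed green line; SUPT16H and NELFCD had separate gene body peaks in the vehicle libraries and none in the CDDD11-8 libraries.

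NELFA encodes the subunit through which NELF contacts RNAPII. Its longest isoform (chr4:1987842-2043630, minus strand) starts 32929 bp upstream of the canonical isoform (chr4:1984450-2010701). At the upstream start, no peak was called in vehicle replicate 1, and the peaks of the other 3 libraries were 740, 1286 and 948 bp wide and ranked above 5.10%, 8.29% and 6.52% of promoter peaks of their own list by fold enrichment. This start lies 91 bp from that of C4orf48, which is transcribed the other way, so signal there cannot be assigned to either gene. At the canonical start the peak ranked above 51.3% and 64.1% of promoter peaks in the vehicle libraries and above 65.9% and 41.7% in the CDDD11-8 libraries. The sequences nearest upstream of both starts that hold no annotated exon are shown because the isoform decides what is measured for this gene, and for the canonical start this stretch begins 262 bp upstream of the TSS. Each is from hg19 and is read in the direction of NELFA, and capitals mark a GC box (GGGCGG or its reverse complement).
NELFA upstream of the canonical start, chr4:2010963-2011082, minus strand: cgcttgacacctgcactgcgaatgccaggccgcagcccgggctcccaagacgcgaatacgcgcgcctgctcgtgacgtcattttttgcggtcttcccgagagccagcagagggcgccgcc
NELFA upstream start to the start of C4orf48, chr4:2043631-2043721, minus strand: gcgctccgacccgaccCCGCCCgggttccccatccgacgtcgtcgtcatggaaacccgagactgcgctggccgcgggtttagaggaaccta

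The vehicle peaks at the canonical NELFA start were 1508 and 1520 bp wide, and the CDDD11-8 peaks 3789 and 3955 bp. It ended 346 and 387 bp downstream of the TSS with vehicle and 2156 and 2016 bp with CDDD11-8, so the groups did not overlap in width or in downstream reach. Mean width was 1514 ± 8.49 bp with vehicle and 3872 ± 117 bp with CDDD11-8 (SD, n = 2 each). Gene body coverage of the canonical isoform was 24.0% and 29.8% with vehicle and 51.0% and 43.2% with CDDD11-8, and that of the longest isoform was 7.74% and 10.4% against 21.4% and 18.1%. NELFA was thus the member with the largest difference towards higher gene body coverage, 10.7 percentage points for the longest isoform. In the map, its peaks were wider at the canonical start and began further before the TES with CDDD11-8. The 3′ end of NSD2, transcribed towards it on the other strand, lies 515 bp from the canonical TES and takes 82.8% of the 3 kb after it. Coverage of the 3 kb after the canonical TES was 87.3% and 93.4% with vehicle and 100% and 72.2% with CDDD11-8, with overlap. Whether the signal in that region belonged to NELFA or NSD2 cannot be told apart. The 3 kb after the longest isoform's TES lie within the canonical isoform, and their coverage was 100% in all 4 libraries.

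NELFB (chr9:140149779-140167994, plus strand), which encodes a central scaffold subunit of NELF, had the widest promoter peak of the NELF genes in every library. The peak was 4739 and 4906 bp wide with vehicle and 9075 and 7048 bp with CDDD11-8, a difference of means of 3239 bp. It extended on both sides: it ended 2503 and 2160 bp downstream of the TSS with vehicle and 3959 and 2944 bp with CDDD11-8, and began 2235 and 2745 bp upstream with vehicle and 5115 and 4103 bp with CDDD11-8. With CDDD11-8 the peak also covered the start of STPG3, whose 3′ end lies 1843 bp upstream of NELFB on the same strand. With vehicle, 80.5% and 87.5% of the gene body was covered, against 71.3% and 26.7% with CDDD11-8. The groups did not overlap, but the CDDD11-8 replicates differed from each other by more than replicate 1 differed from either vehicle library. Coverage of the 3 kb after the TES was 35.5% and 89.6% with vehicle and 11.4% and 19.5% with CDDD11-8. The promoter peak ranked above 23.6% and 52.9% of promoter peaks with vehicle and above 60.1% and 59.7% with CDDD11-8. The 120 bp before this start are shown because they held the most GC boxes of any sequence printed here, 4, in capitals.
NELFB, chr9:140149659-140149778, plus strand: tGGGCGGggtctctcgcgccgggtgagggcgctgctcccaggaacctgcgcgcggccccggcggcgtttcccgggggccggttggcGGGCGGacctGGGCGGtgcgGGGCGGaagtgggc

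NELFCD (chr20:57556263-57570186, plus strand), which encodes the subunit that exists as NELF-C or NELF-D, differed between treatments in the gene body more than at the promoter. Its promoter peak was 4047 and 3172 bp wide with vehicle, and the CDDD11-8 values of 4688 and 3890 bp overlapped with these. Coverage of the body was 68.3% and 32.5% with vehicle and 19.9% and 13.7% with CDDD11-8, a difference of means of -33.6 percentage points. The vehicle libraries had 5 and 4 separate gene body peaks and the CDDD11-8 libraries had 0, so all covered bases that were left belonged to the promoter peak. With equal numbers of peaks in each list the vehicle libraries had 2 and 0 such peaks. Coverage after the TES was 100% and 84.7% with vehicle and 12.9% and 0% with CDDD11-8. CTSZ, a lysosomal protease gene on the other strand, overlaps the 3′ end and, by its outermost annotated ends, takes 69.3% of the NELFCD body and 100% of the window after its TES, and its own start had a promoter peak in 1 of the 4 libraries. RNAPII on the strand of CTSZ cannot be told apart from RNAPII on NELFCD, since ChIP reads carry no strand.

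NELFE (chr6:31919864-31926748, minus strand) encodes the RNA-binding subunit of NELF. Its promoter peak was 1964 and 2151 bp wide with vehicle and 5613 and 4190 bp with CDDD11-8, and the difference of 2844 bp lay on both sides of the TSS. With peaks within 1 kb of each other merged, the width was 14156 and 2951 bp with vehicle and 7030 and 5402 bp with CDDD11-8, so that the groups overlapped and the difference of means was -2338 bp, which rests on vehicle replicate 1. The peak ended 1226 and 1181 bp downstream of the TSS with vehicle and 2400 and 2278 bp with CDDD11-8. The start of SKIC2, transcribed the other way from 144 bp upstream, lay inside the peak in all 4 libraries. Peaks covered 70.1% and 13.6% of the gene body with vehicle and 49.7% and 30.1% with CDDD11-8, and the vehicle replicates lay on either side of both CDDD11-8 replicates. After the TES, where the complement gene CFB abuts on the other strand, coverage was 100% and 94.3% with vehicle and 49.1% and 21.9% with CDDD11-8. The start of CFB had no promoter peak in any library.

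The small DSIF subunit gene SUPT4H1 (chr17:56422608-56429784, minus strand) encodes SPT4. Its promoter peak was 3394 and 3507 bp wide with vehicle and 3850 and 3595 bp with CDDD11-8, a difference of means of only 272 bp. The peak was longer downstream and shorter upstream: it ended 1219 and 1408 bp downstream of the TSS with vehicle and 1992 and 1810 bp with CDDD11-8, and began 2174 and 2098 bp upstream with vehicle and 1857 and 1784 bp with CDDD11-8. Among the 9 members with a promoter peak in every library, SUPT4H1 was the only one whose upstream extent was shorter in both CDDD11-8 libraries than in either vehicle library. Its promoter peak ranked above 82.7% and 96.7% of promoter peaks with vehicle and above 72.5% and 37.9% with CDDD11-8, a difference of means of -34.5 percentage points. In the gene body the groups overlapped, with coverage of 25.9% and 16.1% with vehicle and 32.3% and 22.0% with CDDD11-8. After the TES, coverage was 39.5% and 35.9% with vehicle and 0% in both CDDD11-8 libraries. RNF43 ends 1252 bp upstream on the same strand, and both a readthrough gene joined to it and the antisense lncRNA TSPOAP1-AS1 are annotated across SUPT4H1.

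SUPT5H (chr19:39932283-39967310, plus strand) encodes SPT5, the large DSIF subunit and a direct CDK9 substrate. Its longest isoform starts 3939 bp upstream of the canonical start, where the strongest summits were found. The promoter peak called at the longest isoform was 6782, 5515, 19104 and 635 bp wide in the 4 libraries in turn. In 3 of these its summit lay 3855, 3920 and 3909 bp downstream, close to the canonical start, whereas in CDDD11-8 replicate 2 a separate peak of 635 bp was called with its summit at -101 bp. The sequences around both starts differ in composition: the 300 bp on either side of the upstream start held 2 CpG dinucleotides and those around the canonical start 51. A stretch upstream of each is shown, from hg19 and outside annotated exons, which for the canonical start begins 142 bp upstream of it, and neither stretch held any of the motifs searched.
SUPT5H upstream start, chr19:39932163-39932282, plus strand: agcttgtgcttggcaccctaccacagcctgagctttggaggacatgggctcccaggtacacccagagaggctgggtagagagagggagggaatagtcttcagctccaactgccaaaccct
SUPT5H upstream of the canonical start, chr19:39935961-39936080, plus strand: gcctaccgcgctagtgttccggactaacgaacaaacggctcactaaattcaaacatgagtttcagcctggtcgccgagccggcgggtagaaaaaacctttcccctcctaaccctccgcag

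At the canonical SUPT5H start the peak ranked above 96.3% and 44.9% of promoter peaks with vehicle and above 95.8% and 86.2% with CDDD11-8. It ended 1614 and 1594 bp downstream of this start with vehicle, and further at 3909 and 2860 bp with CDDD11-8. Its width was 6782 and 5515 bp with vehicle and 19104 and 5535 bp with CDDD11-8, and the widest of these peaks also covered the start of RPS16. Gene body coverage of the longest isoform was 31.8% and 16.8% with vehicle and 24.0% and 18.1% with CDDD11-8, with overlap of the groups. Within each library, the best fold enrichment at the promoter was divided by that of the best separate gene body peak, and the log2 of this ratio was 2.39 and 1.17 with vehicle and 4.19 and 3.03 with CDDD11-8 for the canonical isoform. Coverage of the 3 kb after the TES was 94.6% and 60.7% with vehicle and 69.2% and 37.7% with CDDD11-8. The highest peak that reached this window had a fold enrichment of 4.75 and 5.36 with vehicle and 36.3 and 21.0 with CDDD11-8, and in all 4 libraries a peak in this window ran on across the start of TIMM50, the next gene on the same strand. RNAPII of these genes cannot be told apart there.

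SUPT6H (chr17:26989223-27029697, plus strand), the SPT6 gene, had the most separate peaks along its body in every library. The promoter peak was 2583 and 3289 bp wide with vehicle and 8556 and 7258 bp with CDDD11-8, and this difference of 4971 bp was the largest towards wider peaks among the longest isoforms of the 9 members measured in all 4 libraries. At the canonical start the difference for SUPT5H was larger, 6171 bp, with overlap of its groups. It ended 1084 and 1623 bp downstream of the TSS with vehicle and 4069 and 3850 bp with CDDD11-8, whereas with peaks within 1 kb merged it ended further downstream with vehicle, at 4603 and 4368 bp. The strongest summit stayed within 100 bp of the TSS in all 4 libraries, at 16, -28, -7 and 1 bp. SDF2 is transcribed the other way from the same promoter region, and the outermost annotated starts of the pair leave 8 bp between them, gaaatgac on the plus strand (chr17:26989208-26989215), so a single peak covered the start of both genes in every library. Body coverage was 71.8% and 40.4% with vehicle and 44.1% and 25.0% with CDDD11-8, with 22 and 20 separate gene body peaks against 12 and 10. In the full lists the numbers of peaks did not overlap between the groups, whereas coverage did. With equal numbers of peaks in each list these numbers overlapped too, at 10 and 2 with vehicle and 9 and 10 with CDDD11-8. The log2 promoter to gene body ratio was 1.10 and 1.20 with vehicle and 2.63 and 3.09 with CDDD11-8, a difference of 1.71. Coverage after the TES was 100% in all 4 libraries, and PROCA1, which ends 517 bp downstream on the other strand, takes 82.8% of that window.

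SUPT16H (chr14:21819635-21852178, minus strand), which encodes the large FACT subunit SPT16, had the largest difference in gene body coverage. Coverage was 56.7% and 46.5% with vehicle and 8.48% and 7.42% with CDDD11-8, and the means of 51.6 ± 7.17% and 7.95 ± 0.746% (SD, n = 2 each) differed by -43.6 percentage points. The vehicle libraries had 17 and 16 separate gene body peaks and the CDDD11-8 libraries none. After the TES, coverage was 96.7% and 100% with vehicle and 0% in both CDDD11-8 libraries. This window is shared with the 3′ end of RPGRIP1, which converges on SUPT16H from 174 bp away and whose start had no promoter peak in any library. With each list limited to its 21842 best peaks by q-value, gene body coverage was 24.1% and 24.9% with vehicle, still above the 8.48% and 7.42% with CDDD11-8. The width of the promoter peak overlapped between groups, at 5650 and 4116 bp with vehicle and 5647 and 5469 bp with CDDD11-8. It ranked above 98.0% and 77.2% of promoter peaks with vehicle and above 68.2% and 41.4% with CDDD11-8. Its 120 bp before the TSS are shown because they had the lowest GC content of the members, 44.2%, with no GC box and a pair of ETS core motifs (CCGGAAG or its reverse complement) in capitals.
SUPT16H, chr14:21852179-21852298, minus strand: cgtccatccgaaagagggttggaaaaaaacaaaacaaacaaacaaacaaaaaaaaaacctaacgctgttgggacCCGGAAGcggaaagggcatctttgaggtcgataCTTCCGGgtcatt

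PAF1 and CTR9, which encode partners in the PAF1 complex, had the widest and the narrowest promoter peak of the set in both vehicle libraries, among the 9 members with a peak in every library. PAF1 (chr19:39876269-39881746, minus strand) was the shortest member, at 5478 bp, and the only one with a narrower promoter peak in both CDDD11-8 libraries. The peak was 12094 and 10718 bp wide with vehicle, so that it covered the whole gene, and 9210 and 7632 bp with CDDD11-8. The difference lay on the downstream side: the peak ended 8648 and 7376 bp after the TSS with vehicle and 5801 and 3734 bp with CDDD11-8. Upstream, it began 3445 and 3341 bp before the TSS with vehicle and 3408 and 3897 bp with CDDD11-8, with overlap. With peaks within 1 kb merged, the width was 30083 and 12671 bp with vehicle and 31514 and 7632 bp with CDDD11-8, so the groups overlapped. The downstream ends then overlapped too, at 8648 and 8612 bp with vehicle and 9101 and 3734 bp with CDDD11-8. The gene body was covered to 100% in 3 libraries and 66.3% in CDDD11-8 replicate 2. After the TES, where SAMD4B ends on the other strand, coverage was 100% and 90.7% with vehicle and 69.1% and 0% with CDDD11-8. MED29, a Mediator subunit gene, starts on the other side of the promoter, and its start lay inside the peak in all 4 libraries. The sequence between the outermost annotated first exons of PAF1 and MED29 is shown because one peak covered both starts in every library, and capitals mark a GC box and a pair of CCAAT boxes.
PAF1 to MED29, chr19:39881795-39881942, minus strand: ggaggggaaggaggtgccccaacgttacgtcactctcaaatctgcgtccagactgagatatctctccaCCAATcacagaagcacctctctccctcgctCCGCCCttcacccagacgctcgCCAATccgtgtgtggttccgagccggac

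CTR9 (chr11:10772793-10801293, plus strand) had no other protein-coding gene within 3 kb, and peaks there lay at the promoter apart from 1 separate gene body peak in each of 3 libraries. The promoter peak was 1166 and 919 bp wide with vehicle and 2281 and 2026 bp with CDDD11-8. It ended 307 and 364 bp downstream of the TSS with vehicle and 1141 and 1183 bp with CDDD11-8. The peak ranked above 30.1% and 27.7% of promoter peaks with vehicle and above 41.8% and 58.7% with CDDD11-8. Its body was covered to 1.03% and 1.72% with vehicle and 4.04% and 3.13% with CDDD11-8, and in CDDD11-8 replicate 2 all of it belonged to the promoter peak. No base of the 3 kb after the TES was covered in any library. Its sequence is shown because CTR9 and SUPT16H were the members with an ETS core motif in the 120 bp before the TSS, while their promoter ranks differed in opposite directions. Capitals mark ETS cores and a GC box.
CTR9, chr11:10772673-10772792, plus strand: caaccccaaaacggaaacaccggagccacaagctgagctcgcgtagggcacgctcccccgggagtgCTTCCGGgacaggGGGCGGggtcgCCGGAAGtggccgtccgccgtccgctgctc

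Letters shared by these promoters were counted in the 120 bp before each longest isoform's TSS, on both strands, and none of the motifs searched contains another. A GC box (GGGCGG) was found at 8 of the 10 members, all but SUPT5H and SUPT16H, compared with 44.5% of all 19794 genes. The ETS core (CCGGAAG) was found at 2 members, compared with 7.95% of all genes, and CCAAT at PAF1 alone, compared with 22.4%. Neither TATAAA (5.68% of all genes) nor the NRF1 core TGCGCA (5.67%) was found at any member. GC content over 300 bp on either side of the TSS had a median of 64.2% among members and 62.7% among all genes. All 19794 genes include those without a promoter peak, which the members had. The windows of NELFA and SUPT5H lie at their upstream starts and not at the canonical ones. These counts describe the letters of the windows and carry no test.

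**Figure D2:**
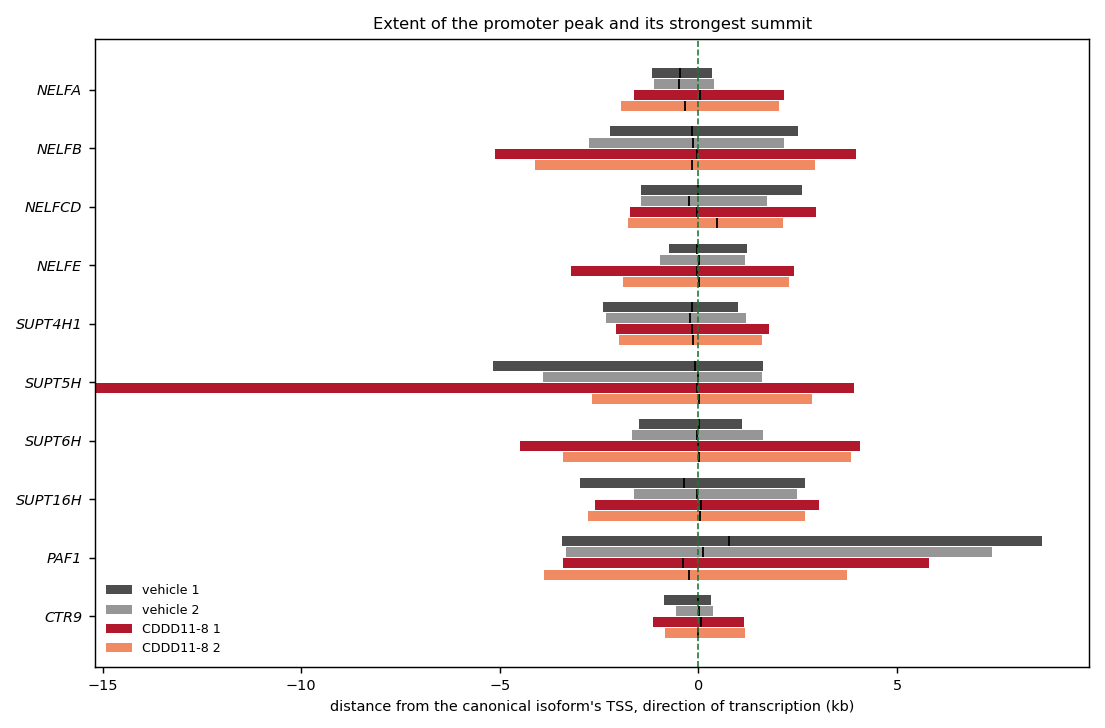
Extent of the promoter peak of each gene in the 4 libraries, in kb from the canonical isoform's TSS (dashed line) in the direction of transcription, with black ticks at the strongest summit. Grey bars are vehicle and red and orange bars CDDD11-8; at every gene except NELFCD and PAF1 both CDDD11-8 bars run further downstream than both vehicle bars, and at PAF1 both end earlier.

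By the median over the set, promoter peaks were wider with CDDD11-8, as they were over all genes. Of the 9 members whose longest isoform had a promoter peak in every library, 5 were wider in both CDDD11-8 libraries and 1, PAF1, was narrower, where 64.5% of 9602 genes were wider and 9.39% narrower. Median width over the members was 3610 bp with vehicle and 5558 bp with CDDD11-8, with a median difference of 1111 bp, compared with 1214 bp over all genes. The downstream end lay further from the TSS at 6 members and nearer at 1, compared with 59.5% and 9.73% of all genes, and the upstream end lay further at 4 and nearer at 1, compared with 66.6% and 7.11%. The member counts in width and reach were thus close to the background. Without vehicle replicate 1, where NELFA could be measured too, 8 of 10 members were wider, compared with 73.4% of 9848 genes. When regions within 1 kb of each other were merged, 2 members (SUPT6H and CTR9) were wider in both CDDD11-8 libraries, compared with 47% of 9606 genes. SUPT16H instead of PAF1 was then narrower, compared with 19.3%. The downstream end then lay further at NELFB, SUPT5H and CTR9, compared with 43.7%, and nearer at SUPT6H and SUPT16H, compared with 18.7%.

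The strength of the promoter peak was compared with that of other promoters in the same library. Ranked among the promoter peaks of the same list, NELFB and CTR9 stood higher in both CDDD11-8 libraries and SUPT4H1, SUPT16H and PAF1 stood lower, where 25.1% of all genes stood higher and 21.9% lower. At the canonical start, which the plot of promoter ranks shows, the means were 73.5% with vehicle and 53.3% with CDDD11-8 for PAF1, and 28.8% and 50.4% for CTR9. This ranking was added after the data had been seen, since lists of different length hold different numbers of weak peaks. Ranked among all peaks of the list, 4 members (NELFE, SUPT4H1, SUPT16H and PAF1) stood lower and none higher, compared with 42% and 9.08% of all genes, and the number standing lower was 7 of 10 without vehicle replicate 1, compared with 63.9%. With equal numbers of peaks in each list, 3 (SUPT4H1, SUPT16H and PAF1) stood lower, compared with 11.6%, and 3 (NELFB, NELFE and CTR9) stood higher, compared with 38.6%, so NELFE changed direction. With each summit ranked as a peak of its own, 2 of 8 stood lower and 3 higher, compared with 12% and 30.8%. At the canonical start every member's promoter peak stood above at least 68.6% of all peaks of its list in every library. The strongest summit lay within 100 bp of the longest isoform's TSS at 5 of 9 and 5 of 10 members with a promoter peak in the vehicle libraries and at 8 and 5 of 10 with CDDD11-8. Over all genes with a promoter peak the shares were 32.4% and 33.6% with vehicle and 39.6% and 38.1% with CDDD11-8.

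**Figure D3:**
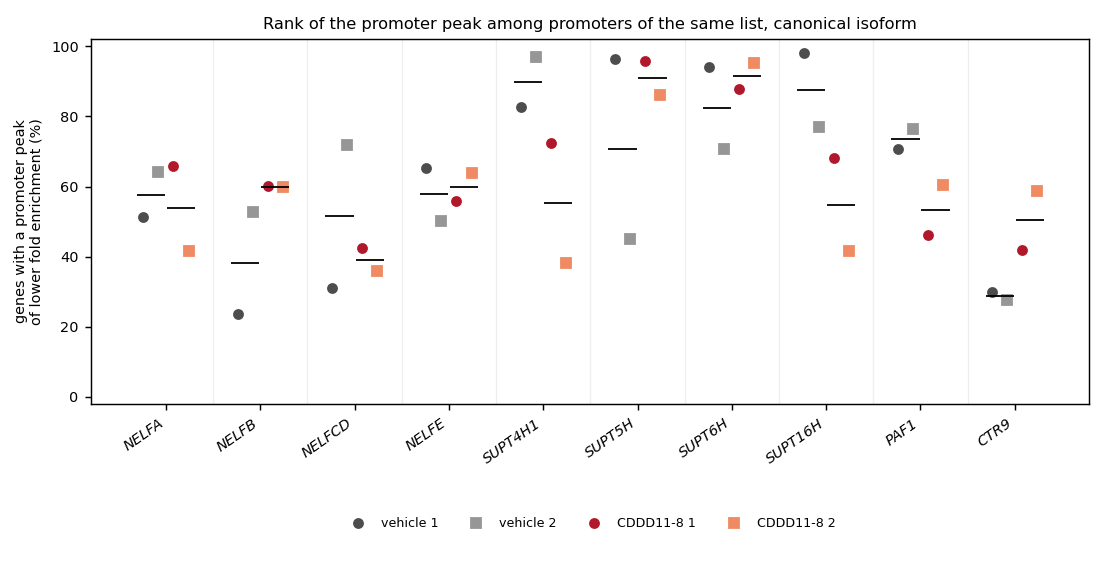
Rank of each gene's promoter peak by fold enrichment among the promoter peaks of the same library, as the percent of genes with a lower value, at the canonical start. Points are the 4 libraries and bars the mean of the 2 replicates; SUPT4H1, SUPT16H and PAF1 stood lower in both CDDD11-8 libraries, and NELFB and CTR9 higher.

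Peaks covered less of the gene body in both CDDD11-8 libraries for 3 of these 9 members (NELFB, NELFCD and SUPT16H) and more for CTR9, where 37.1% of the 9602 genes were lower and 26% higher. The count of lower members was 6 without vehicle replicate 2, compared with 50.1% of all genes, and 5 without CDDD11-8 replicate 1, compared with 48.6%, so it depended on these libraries. The medians over the members were 50.4% with vehicle and 27.1% with CDDD11-8, compared with 14.9% and 8.73% over all genes, and the median differences were -16.8 and -0.52 percentage points. Genes with low coverage with vehicle had little to lose, which limits how far these differences can be set side by side. Of the 2 lists described below, the 12 RNAPII subunit genes had a median of 53.7% with vehicle and a median difference of -6.17. The 19 other elongation genes had 14.7% and -1.97. Among the members, NELFCD and SUPT16H had separate gene body peaks in both vehicle libraries and none with CDDD11-8, a pattern of 20.4% of all genes. SUPT16H kept this pattern with equal numbers of peaks in each list, and NELFCD did not. With equal numbers of peaks in each list, NELFB and SUPT16H were lower and NELFE, SUPT4H1, SUPT5H and CTR9 were higher, compared with 22.4% and 42.2% of 9011 genes. NELFE then had 18.5% and 13.4% with vehicle and 49.7% and 30.1% with CDDD11-8. The calls for NELFCD, NELFE, SUPT4H1 and SUPT5H therefore depended on how many weak peaks each list held, while NELFB and SUPT16H were lower either way. With peaks within 1 kb merged, NELFCD and SUPT16H were lower and CTR9 higher, compared with 37.8% and 22.5% of 9606 genes. The NELFB libraries then overlapped.

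More members differed in the same direction beyond the TES than in the gene body. Coverage of the first 3 kb was lower in both CDDD11-8 libraries for 6 of 9 members and higher for none, compared with 39.7% and 3.04% of all genes. Median coverage over the members was 92.3% with vehicle and 15.5% with CDDD11-8, compared with 35.8% and 0% over all genes, and the median differences were -47.1 and -7.04 percentage points. The 12 RNAPII subunit genes had a median of 85.5% with vehicle and a median difference of -47.2, close to the members. For the 19 other elongation genes these were 36.55% and -12.8. A gene with little coverage with vehicle can lose little. SUPT6H was at 100% in all 4 libraries and CTR9 at 0%, while the SUPT5H libraries overlapped. With peaks within 1 kb merged, SUPT5H was among the 6 lower members in place of PAF1, compared with 36.8% of 9606 genes. With equal numbers of peaks, NELFCD, NELFE, SUPT16H and PAF1 were still lower, compared with 25% of all genes, while SUPT4H1 was at 0% in all 4 lists and the NELFB libraries overlapped. At NELFCD, NELFE, SUPT16H and PAF1 another protein-coding gene on the other strand fills most of the window, and at SUPT4H1 the antisense lncRNA does. Only SUPT5H and CTR9 had no other protein-coding gene within 3 kb. Neither was lower in both CDDD11-8 libraries after the TES or in the gene body, compared with 41.9% and 36% of 4010 genes so placed. The part of the neighbours in the result was not tested. The plot of coverage gives each library's value for the gene body and for this window.

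**Figure D4:**
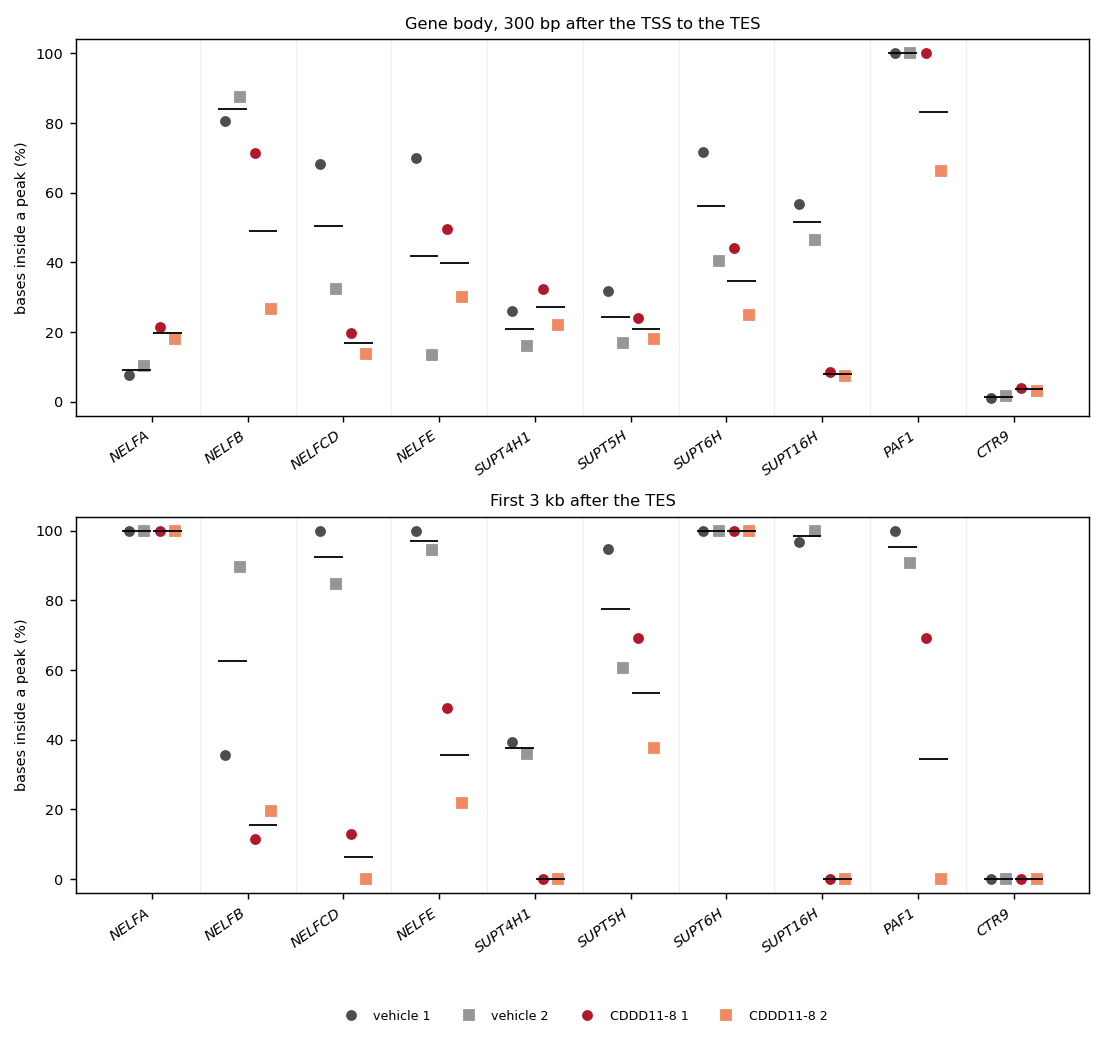
Percent of bases inside a called peak in the gene body (top) and in the first 3 kb after the TES (bottom) of each gene's longest isoform. Points are the 4 libraries and bars the mean of the 2 replicates; after the TES, both CDDD11-8 points lie below both vehicle points at NELFB, NELFCD, NELFE, SUPT4H1, SUPT16H and PAF1.

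By distance from the TSS, coverage over the set was higher with CDDD11-8 close to the start and lower further in. From 1 to 2 kb after the canonical TSS, 64.6% and 55.2% of the pooled bases of the 10 members lay inside a peak with vehicle and 92.5% and 87.7% with CDDD11-8. From 2 to 5 kb the libraries overlapped, with 41.2% and 27.8% against 42.6% and 22.8%. From 5 to 10 kb, 32.4% and 22.7% of bases were covered with vehicle and 9.29% and 0% with CDDD11-8; PAF1 enters this bin with its last bases only. The 9602 genes of the background, measured at the longest isoform, had the same order, with group means of 59.8% and 81.8% from 1 to 2 kb and of 19.2% and 6.86% from 5 to 10 kb. At the longest isoform, the group means of the members were 65.2% and 81.1% from 1 to 2 kb and 29.6% and 10.9% from 5 to 10 kb.

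**Figure D5:**
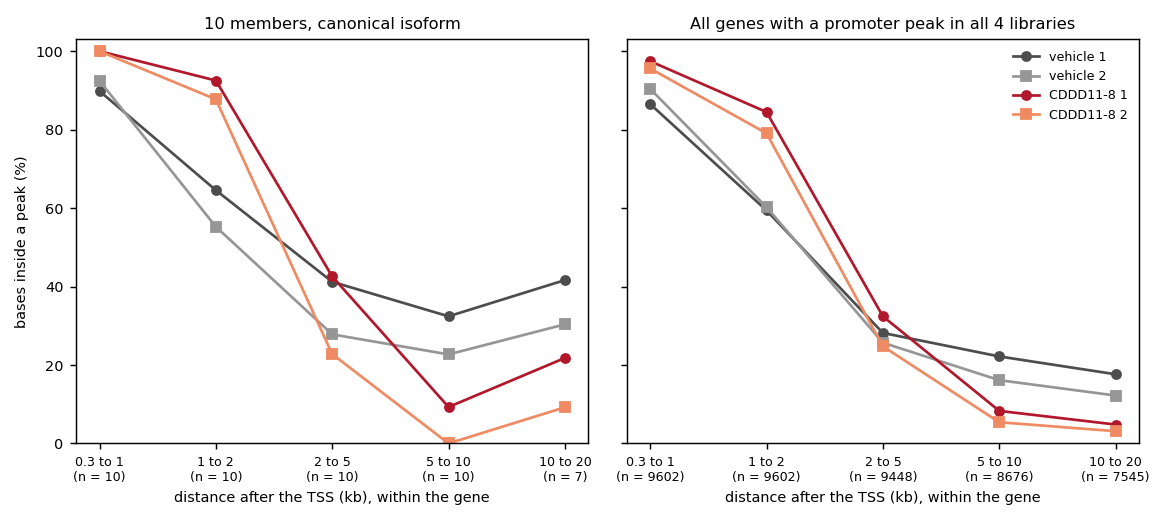
Percent of bases inside a peak, pooled over genes, by distance in kb after the TSS, within the gene, for the 10 members at the canonical start (left) and for the background of 9602 genes at the longest isoform (right). Lines are the 4 libraries and n is the number of genes long enough for the bin; the CDDD11-8 lines lie above vehicle from 1 to 2 kb and below it beyond 5 kb.

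The ratio of promoter to gene body fold enrichment needs a separate peak in both places in every library, which 3 members had at the longest isoform. It was higher in both CDDD11-8 libraries for NELFB (0.07 and 1.15 with vehicle, 2.56 and 2.79 with CDDD11-8, log2) and for SUPT6H, and lower for none, compared with 65.8% and 8.74% of the 1980 genes with a value. For SUPT5H the libraries overlapped at the longest isoform and did not at the canonical one. At the canonical NELFA start the log2 ratio was 0.62 and 0.55 with vehicle and 1.13 and 1.31 with CDDD11-8. Without CDDD11-8 replicate 2, in which 6 members had no separate gene body peak, the ratio was higher at 5 of 5 members, compared with 78.6% of 2864 genes.

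For comparison, other elongation genes were measured in the same way. Of 20 genes that encode the rest of the PAF1 complex, the FACT partner SSRP1, the SPT6 partner IWS1, TFIIS, elongin and related factors, 19 had a promoter peak in every library and TCEA2 had none. Peaks were wider in both CDDD11-8 libraries for 14 of the 19 and narrower for ELOB alone, compared with 64.5% and 9.39% of all genes. Body coverage was lower for 8 and higher for RNF20 alone, compared with 37.1% and 26%. The lowest difference was that of LEO1, another PAF1 complex gene, with 95.7% and 80.6% with vehicle and 9.41% and 9.37% with CDDD11-8. After the TES, 9 of the 19 were lower and none higher, compared with 39.7% and 3.04%, and LEO1 had 100% in both vehicle libraries and 0% in both CDDD11-8 libraries. SSRP1, whose product pairs with that of SUPT16H, had 74.8% and 50.8% gene body coverage with vehicle and 73.0% and 49.5% with CDDD11-8, unlike SUPT16H; it is named for this partnership after its values were seen. CDC73, also of the PAF1 complex, had 19.4% and 26.3% against 1.57% and 1.39%.

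Of the 12 genes of the RNAPII subunits themselves, all had a promoter peak in every library. Peaks were wider in both CDDD11-8 libraries for 7 and narrower for POLR2I alone, compared with 64.5% and 9.39% of all genes. Body coverage was lower for 4 (POLR2A, POLR2D, POLR2G and POLR2H) and higher for none, compared with 37.1% and 26%. The gene of the catalytic subunit, POLR2A, had 56.1% and 33.9% with vehicle and 9.44% and 9.28% with CDDD11-8, while its promoter peak ranked above 99.0% and 99.5% of promoter peaks with vehicle and above 99.5% and 98.7% with CDDD11-8. After the TES, 7 of the 12 were lower and POLR2K alone was higher, compared with 39.7% and 3.04%.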

How the data were processed

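RNAPII ChIP-seq peak lists of 4 libraries of MDA-MB-453 cells were analysed, 2 for vehicle and 2 for CDDD11-8. The 4 chromatin input libraries were not analysed as samples. Reads had been aligned by the authors to hg19 (GRCh37) using Bowtie 2, and they called peaks per library with MACS2 at default settings against a paired input, without pooling replicates. The deposited pileup is a signal, the scaled number of fragments over a summit. The fold enrichment, as deposited, is the ratio of this pileup to its local background. The p-values and q-values, as deposited, are on the −log10 scale, with a smallest −log10 q of 2.00 in each list, and region lengths are in bp. No read totals are given, so the depth is unknown and gives no precision.

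Summits sharing a region were joined into 1 peak with the highest fold enrichment. Protein-coding genes came from GENCODE release 44 lifted to GRCh37, each with its longest isoform by genomic span, and the canonical isoform was the alternative. A peak was counted at a promoter if it overlapped 300 bp either side of the TSS by at least 1 bp. Counts over all genes used those at least 1 kb long with a promoter peak in all 4 libraries. Fold enrichment was compared only as a rank or ratio within a list. Treatments were compared with 1 value per library by a two-sided exact permutation test over 6 splits. Genes were chosen by name with earlier results of these data known, as were the lists of elongation and subunit genes, of which those with the lowest or highest values were named. CDC73 and SSRP1 were named after their values were seen. Neighbours within 3 kb were named. Ranks among promoter peaks, and a count restricted to genes whose isoforms start within 1 kb of each other, were added after the data were seen. Alternatives covered a −log10 q of at least 5, equal numbers of peaks, summits as peaks, merging within 1 kb, other windows, the canonical isoform, a replicate block and leaving out each replicate. Shares over all genes under these alternatives used genes of that length whose promoter held a peak in each library kept. Sequences were read from GRCh37. On simulated peaks, placed at 2000 genes, each measure recovered all 2000 values. Scripts used matplotlib 3.10.9, scipy 1.17.1, pandas 2.3.3 and numpy 2.4.6 under Python 3.11.15.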

Additional observations from a re-analysis of the deposited data

How the results depend on the processing

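Counts of members are of those whose CDDD11-8 libraries both lay beyond both vehicle libraries in the direction reported. With each summit as a peak, the number with a lower rank among all peaks was 2 instead of 4 and that with a higher promoter to gene body ratio 4 instead of 2, compared with 12% and 58.1% of all genes. With peaks within 1 kb merged, 2 members instead of 5 had a wider promoter peak and 3 instead of 6 a longer downstream reach. The shares of all genes were then 47% and 43.7%. With the canonical isoform, the ratio was higher at 4 members, compared with 70.5% of all genes. Leaving out one replicate at a time gave 4 to 7 members for rank, 5 to 8 for width, 6 to 8 for downstream reach, 3 to 6 for gene body coverage, 6 to 7 for coverage after the TES and 2 to 5 for the ratio. The shares of all genes moved as well. They were 49% to 63.9% for rank, 66.1% to 76.4% for width and 62.3% to 72.2% for downstream reach. For gene body coverage they were 38.5% to 50.1%, after the TES 39.9% to 49.4% and for the ratio 71.2% to 78.6%. Same-numbered libraries did not deviate together across 9602 genes (Pearson r of -0.039 for width, -0.063 for gene body coverage and -0.027 for promoter rank). These values cannot show whether such libraries came from the same passage of cells, which the sample labels do not give. Counting by same-numbered pairs, the replicate block gave 5 members for rank, 6 for width, 7 for reach, 4 for gene body coverage, 7 for coverage after the TES and 2 for the ratio. This criterion is looser than the main one. The share of all genes that met it is not given here, so these counts cannot be set beside the background. The difference in rank of NELFE was 5.30 percentage points with equal numbers of peaks and 0.83 with each summit as a peak, against -7.57. With peaks within 1 kb merged, the difference was -2338 bp for the width and -4272 bp for the reach of NELFE, -526 bp for the reach of SUPT6H and -1330 bp for that of SUPT16H, where merging joined downstream peaks of the vehicle libraries to the promoter peak, at NELFE in vehicle replicate 1 alone. Of the values of single members under the alternatives, 483 were counted as within the spread between replicates, 50 as moving further and 6 as reversed. These 6 do not hold every change of sign. With equal numbers of peaks, mean gene body coverage of NELFE, SUPT5H and SUPT6H was higher with CDDD11-8, against differences of -1.94, -3.23 and -21.5 percentage points. The mean rank of NELFCD among all peaks was then higher too, against -11.3. Peak lists without read totals limit every width and coverage, since a weakly covered stretch is either listed or absent.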
